A study of Mus musculus with 20 samples.

Results

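Heparan sulfate is a sulfated sugar chain that cells attach to core proteins at their surface and in the matrix. The genes described here make the chain, sulfate it, edit it and carry it. The list of 40 genes, among the 23413 gene names of the count tables, was drawn up by function, and it was proposed because Ndst3 stood out in an earlier analysis of the diet in females of these same mice. The values of Ndst3 in females are therefore given as a description with no test, as is every other value from the comparison of diets in females and from its difference to males. All 40 genes were found in the tables and 38 had enough counts to be tested. Hs3st6 and Hpse2, at no more than 0.339 and 0.221 CPM in any library, were not tested.

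Total RNA came from the frozen brain cortex of 20 mice aged 22 months, with 1 library per mouse. All mice, controls included, carried human APOE4 in place of mouse Apoe, from the allele tm1.1(APOE*4)Adiuj on a B6(SJL) background. They had been fed a carbohydrate-rich control diet (CD, which the labels call SD) or a ketogenic diet (KD), high in fat and low in carbohydrate, in isocaloric amounts over the 12 months that followed the age of 10 months. The groups held 9 females (5 CD and 4 KD) and 11 males (5 CD and 6 KD), and each mouse is named by the number in its label. The study asked how the diet acts on the aged APOE4 brain in females and males. Counts per library summed to between 12207161 and 29109990. The mouse numbers in the labels fell into 2 ranges of 10, called library series here, though the labels name no batch. Totals were 21015275 to 29109990 in series 1 and 12207161 to 17697342 in series 2. Levels are in CPM, the counts of a gene scaled to the total of its library in units of 1000000, and mean ± SD is over mice.

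Synthesis starts with a linkage sugar that is built on the core protein, first by the xylosyltransferases Xylt1 and Xylt2 and last by the glucuronyltransferase B3gat3. The polymerases Ext1 and Ext2 then extend the chain. The NDST enzymes remove acetyl groups and add sulfate to nitrogen, which opens the chain to the epimerase Glce and to the sulfotransferases of the 2-O, 6-O and 3-O positions. The sulfatases Sulf1 and Sulf2 later trim 6-O-sulfate outside the cell and heparanase (Hpse) cuts the chain. The main membrane carriers are the glypicans, held by a lipid anchor, and the syndecans, which span the membrane. In the brain these chains bind growth factors such as FGFs, guide axons and take part in the uptake of lipoproteins that carry apoE.

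Levels differed widely between the genes, and were compared per kilobase of exon because a longer gene yields more reads. The highest was Extl2, a transferase of the exostosin family, at 46.7 ± 5.26 CPM per kilobase over the 20 libraries. It was followed by the syndecan Sdc4 (32.6 ± 5.67), the 3-O-sulfotransferase Hs3st4 (24.9 ± 5.58), Sdc2 (24.3 ± 6.12) and Extl3 (22.9 ± 4.41), the enzyme that adds the first glucosamine. Hs3st4, Sdc2 and Extl3 did not differ beyond their spread, and of the 39 pairs of neighbours in the order only 7 differed by more than the larger of their SDs. Ndst3 was the 22nd of the 40, at 5.07 ± 1.49 CPM per kilobase. The lowest were the syndecan Sdc1 (0.216 ± 0.108), Hs3st6 (0.0701 ± 0.0784) and Hpse2 (0.0119 ± 0.0129), whose product lacks heparanase activity.

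**Figure D1:**
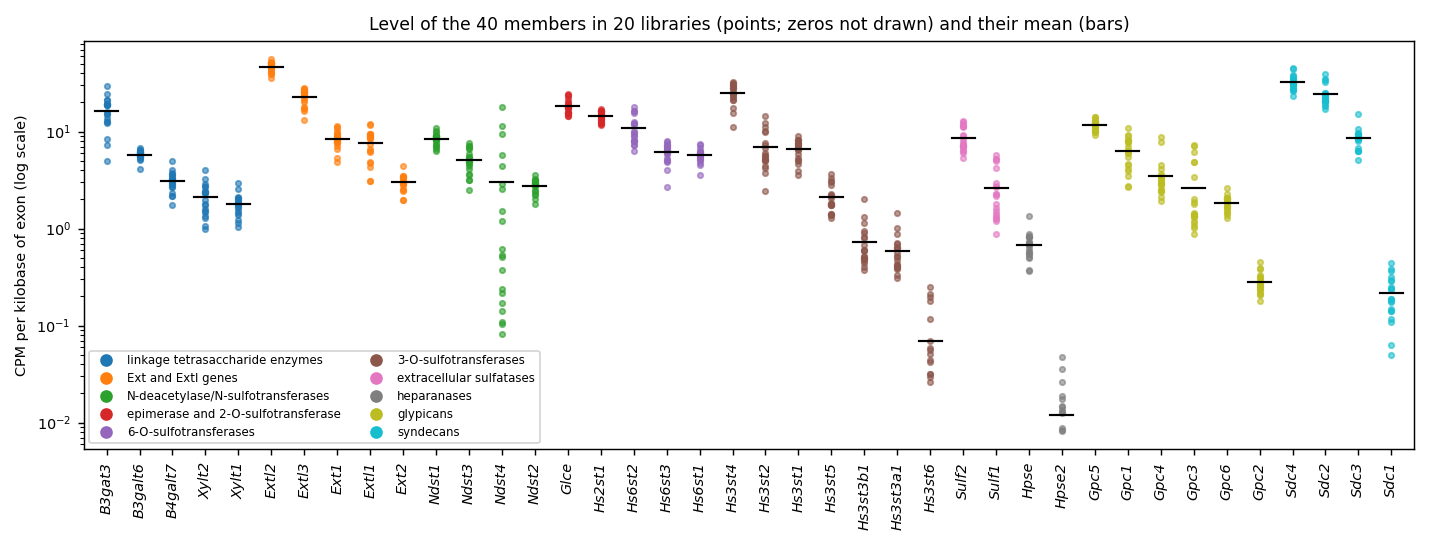
Level of each of the 40 genes in CPM per kilobase of exon (log axis), by class. Points are the 20 libraries, with libraries at 0 not drawn, and bars are means. Extl2 is highest at a mean of 46.7, and Ndst4 is the most widely spread.

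Within most classes 1 gene held a large share of the summed level per kilobase. B3gat3 held 56.3% of that of the linkage enzymes, Extl2 52.7% of the 5 Ext and Extl genes, Glce 56.0% of the pair with Hs2st1, Hs6st2 47.7% of the 6-O-sulfotransferases and Hs3st4 59.5% of the 3-O-sulfotransferases. Ndst1 held 43.8%, Sulf2 76.5%, Hpse 98.3% and the glypican Gpc5 44.4% of their classes. Summed per kilobase, the Ext and Extl genes, which hold the polymerases and the related transferases, were the highest class (88.5 ± 9.77 CPM per kilobase) and the syndecans the next (65.7 ± 10.4). In CPM the Ext and Extl genes summed to 404 ± 71.9 in CD females, 394 ± 61.2 in KD females, 444 ± 22.3 in CD males and 439 ± 38.1 in KD males. The 4 NDST genes summed to 206 ± 85.8 CPM in CD females, 192 ± 53.8 in KD females, 140 ± 13.4 in CD males and 145 ± 21.7 in KD males. The wide spread in females came with Ndst4, described below.

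Libraries differed in the genes of other brain regions, and these values are given before the comparisons. Of 12 markers of the spiny neurons of the striatum, all 12 were detected, with Pde10a the most abundant (247 CPM on average) and Six3 the least (1.22 CPM). Their summed level was 2741, 2485 and 3157 CPM in KD females E61, E68 and E207, and 3729 CPM in KD male E59. It was 1139 CPM in CD female E249. In KD female E227 it was 341 CPM, and in the other 14 libraries it was between 239 and 632 CPM. The 6 markers of cortical excitatory neurons, led by Slc17a7 (354 CPM on average), summed to 253 CPM in CD female E249 and to 241, 246 and 286 CPM in KD females E61, E68 and E207, against 509 to 851 CPM in the other 16 libraries. Striatal markers thus went with the KD in 3 of 4 females, but not in KD female E227, and they were also raised in 1 CD female. Summed markers of other regions and cells were raised in the same libraries. The 8 markers of basal forebrain cholinergic neurons, led by Slc5a7 (19.5 CPM on average), summed to 154 CPM in CD female E249, to 145, 188 and 138 CPM in KD females E61, E68 and E207 and to 63.4 CPM in KD male E59, against at most 21.6 CPM elsewhere. The 8 markers of inhibitory neurons, led by Gad1, summed to 1599 to 1989 CPM in these 4 females and 1280 CPM in E59, against at most 1094 CPM elsewhere. In the same 4 females the 8 markers of oligodendrocyte precursors, led by Pdgfra, summed to 342 to 399 CPM, and the other 5 females reached no more than 226.8 CPM. The 8 of deep-layer neurons, led by Bcl11b, summed to 511 to 708 CPM in them, with the other females at 391 CPM or less. The 8 of hippocampal neurons, led by Kcnip4, summed to 225 to 242 CPM, with the other females at 202 CPM or less. Kcnip4 itself averaged 102 CPM in CD females and 88.5 CPM in KD females. Higher on the KD in females were 5 of 8 inhibitory, 5 of 8 deep-layer and 4 of 8 hippocampal markers, and the rest were lower. All 8 precursor markers and all 7 tested cholinergic markers were higher. KD male E64 had 267 CPM of hippocampal markers, the highest of all libraries. KD male E59 further had 2371 CPM of the 8 choroid plexus markers, led by Ttr, against at most 63.0 CPM elsewhere. The 8 fibroblast markers, led by Dcn, summed to 434 and 222 CPM in KD males E64 and E254, the highest of the males, with a median over all libraries of 106 CPM. In RNA from whole tissue, fewer cells of a type and less RNA per cell cannot be told apart.

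The labels of sex and genotype were checked first. Xist was at 319 to 1364 CPM in females and at most 7.59 CPM in males. The Y-linked gene Ddx3y was at least 164 CPM in males and at most 1.64 CPM in females, except for CD female E228, with 14.0 CPM. Counts on mouse Apoe, which the mice lack, came to 1.33 to 3.34 CPM.

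Ndst3 makes a form of the NDST enzyme found mainly in the brain. The gene is on chr3:123526166-123690853 of mm10, on the minus strand, and overlaps Gm42510 on the same strand, so that some reads could belong to either. It was at 65.95, 70.5, 70.8, 75.8 and 67.3 CPM in CD females E62, E67, E249, E265 and E228. It was at 31.0, 31.2, 34.9 and 40.2 CPM in KD females E61, E68, E207 and E227. The highest KD female thus lay well below the lowest CD female, and the groups did not overlap. Means were 70.1 ± 3.83 CPM (n = 5) and 34.3 ± 4.30 CPM (n = 4), and the log2 fold change of the KD against the CD was -1.07 (SE 0.15). Ndst3 was the 1 gene of the 38 past FDR 0.1 and a 1.5-fold change in females, where 0.0447% of all 15660 tested genes were called. It was chosen from this comparison, so nothing is read from that count. The count was 0 without KD female E61 or without KD female E207, where the log2 fold change of Ndst3 was -1.06 and -1.04, beside 0% of all tested genes in both fits. It was 4 without CD female E249, beside 6.66% of all tested genes, and 4 without KD female E227, beside 5.68%. Within series 1 the means were 68.2 CPM in 2 CD females and 31.1 CPM in 2 KD females, and within series 2 they were 71.3 CPM in 3 and 37.5 CPM in 2.

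The 3 KD females with the highest striatal sums also had the lowest Ndst3, but the order did not hold for all females. CD female E249, with 1139 CPM of striatal markers, had 70.8 CPM of Ndst3, within the range of the other CD females. KD female E227, with 341 CPM of striatal markers, had 40.2 CPM, the highest of the KD females but below every CD female. Ndst3 was chosen for its difference between these groups, which fixes where both mice lie, so nothing is read from their place. Among males, KD male E59 had both the highest striatal sum and the lowest Ndst3, 24.7 CPM.

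In males Ndst3 was at 47.5, 47.9, 53.7, 53.7 and 52.98 CPM in CD males E51, E58, E66, E251 and E264. In the 6 KD males it ranged from 24.7 through a median of 44.8 to 58.7 CPM. The groups overlapped, with KD males E254 (58.7) above and E256 (49.3) within the CD range. Means were 51.2 ± 3.17 CPM (n = 5) and 43.0 ± 11.7 CPM (n = 6), and an exact two-sided permutation test over all splits of these mice gave p = 0.180 for a difference of -0.30 in mean log2 CPM, where the smallest possible p is 0.00216. These splits did not keep to the library series. With the diets reassigned only within each series, an alternative chosen after seeing the data, the exact permutation p was 0.145 over 200 splits (smallest possible 0.005). In edgeR's quasi-likelihood test across all genes the log2 fold change was -0.31 (SE 0.13, adjusted p = 0.9998) in the fit with the series as a term, where Ndst3 is among the genes with an unadjusted p under 0.05 given below. It was -0.20 without KD male E59 and -0.48 without KD males E64 and E254. Within series 1 the means were 49.7 CPM in 3 CD males and 35.5 CPM in 3 KD males (log2 fold change -0.54), and within series 2 they were 53.4 CPM in 2 and 50.5 CPM in 3 (-0.07), so that the lower value on the KD lay mostly in series 1. The difference of the female and male log2 fold changes was -0.76 (SE 0.20), given as a description. CD females averaged above CD males, and KD females averaged below KD males with overlap. Ndst3 was chosen on these female values, so nothing is read from either comparison.

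RefSeq gives 2 start windows for Ndst3 on GRCm38.p6, the assembly called mm10, each from 250 bases before to 50 bases after a start. They are shown because Ndst3 is the gene that set off this list. They were searched for the cAMP response element TGACGTCA and its core TGACG, the letters bound by CREB, a factor of synaptic plasticity. Both lie inside the gene's span above and are written 5′ to 3′ on the minus strand, with a core in capitals.
Ndst3 at chr3:123672428-123672727: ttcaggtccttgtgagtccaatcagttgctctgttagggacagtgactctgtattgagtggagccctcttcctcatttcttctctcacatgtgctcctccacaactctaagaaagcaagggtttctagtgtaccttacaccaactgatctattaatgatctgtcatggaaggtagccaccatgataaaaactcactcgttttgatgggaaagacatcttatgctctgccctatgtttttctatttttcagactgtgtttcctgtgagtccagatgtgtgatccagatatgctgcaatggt
Ndst3 at chr3:123619401-123619700: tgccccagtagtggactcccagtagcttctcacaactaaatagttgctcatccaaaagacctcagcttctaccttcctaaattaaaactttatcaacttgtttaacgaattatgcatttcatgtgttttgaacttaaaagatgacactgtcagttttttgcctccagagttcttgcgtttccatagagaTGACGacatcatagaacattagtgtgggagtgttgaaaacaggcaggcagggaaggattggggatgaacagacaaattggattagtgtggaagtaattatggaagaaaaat
The second window holds 1 core, at position 190 of the window, and the first holds none, on either strand. Of the 40 genes, 30 had windows. A core was in the windows of 10 of them (33.3%) and of 23.0% of all genes with a window. The full site was in those of 2, Hs3st2 and Hs3st3a1 (6.67%), and of 2.03% of all genes. The full site contains the core, so the first count includes the second. A match of letters is a description and not a bound site.

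Ndst4 encodes the other brain NDST, and its own product has low deacetylase activity. The gene lies on chr3:125404076-125728899 on the plus strand, 1713222 bases from Ndst3. It varied more than any other tested gene of the 40, from 0.967 to 211 CPM, or 218-fold. In CD females it was at 1.28, 67.3, 211, 2.78 and 5.99 CPM in E62, E67, E249, E265 and E228, and in KD females it was at 51.7, 135, 109 and 4.37 CPM in E61, E68, E207 and E227. CD males were between 0.967 and 6.29 CPM. KD males were at 1.65 CPM in E53, 18.0 in E59, 34.1 in E64, 14.0 in E213, 7.24 in E256 and 30.0 in E254. High and low libraries were found in both female diet groups. Of the 5 high females, E249, E61, E68 and E207 are those with raised striatal markers, and E67 is not. The highest KD males, E64 and E254, are the pair with the highest fibroblast markers of the males. E64 also had the highest hippocampal sum of all libraries (267 CPM). The part of these markers in the values was not tested. In females the mouse-to-mouse spread exceeded the difference of their means (57.6 ± 90.03 and 75.1 ± 58.6 CPM). In males the KD libraries overlapped the CD libraries, and the log2 fold change was 2.74 (SE 1.16, adjusted p = 0.9998).

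Ndst1 and Ndst2, the widely expressed forms, varied little. Ndst1 was at 65.8 ± 11.5 CPM in CD females, 68.7 ± 3.95 in KD females, 73.8 ± 10.8 in CD males and 71.6 ± 11.6 in KD males. Ndst2 was at 12.3 ± 1.53, 13.5 ± 0.578, 12.5 ± 3.13 and 12.4 ± 2.20 CPM in the same order. Their log2 fold changes of diet lay within 1 SE of 0 in both sexes. Of the summed NDST level per kilobase, Ndst3 made up 33.6% ± 9.60 in CD females and 17.3% ± 5.84 in KD females. In CD and KD males it made up 30.7% ± 4.81 and 25.5% ± 7.13. The shares in females overlapped, at 20.9% to 46.9% on the CD and 12.5% to 25.7% on the KD. These shares also move with Ndst4, which made up from 0.564% to 52.5% of the summed level. The highest Ndst4 share was in CD female E249, where Ndst3 made up 20.9%.

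**Figure D2:**
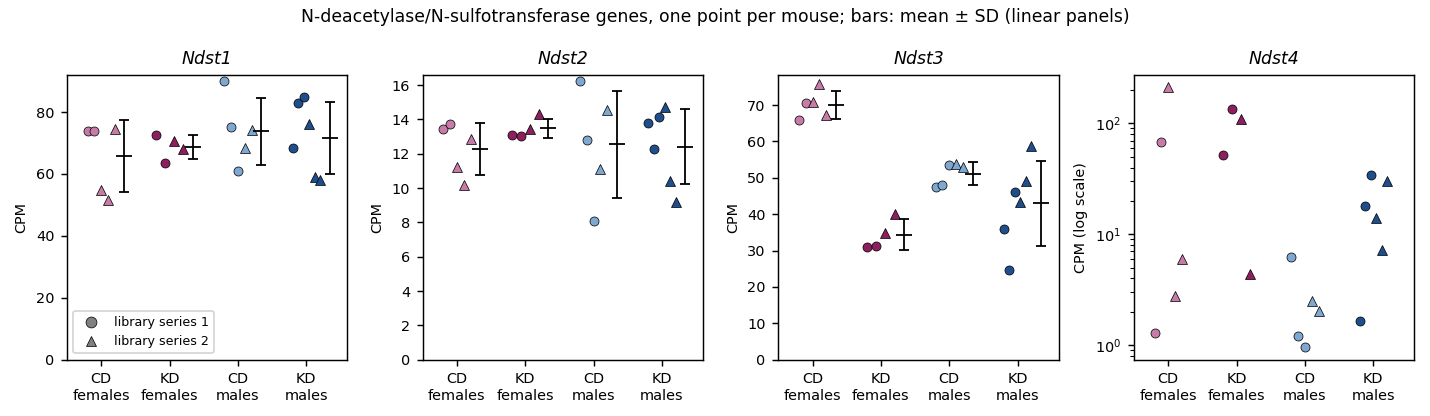
Levels of the 4 NDST genes in CPM by group, with Ndst4 on a log axis. Each point is 1 mouse, its shape gives the library series, and bars are mean ± SD. Ndst3 is at 65.95 to 75.8 CPM in CD females and 31.0 to 40.2 CPM in KD females, while Ndst4 runs from 0.967 to 211 CPM.

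The list was proposed from the comparison in females, and the comparison of diets in males was tested. The list was drawn up with earlier results of these data known. None of the 38 genes passed FDR 0.1 and a 1.5-fold change in edgeR's quasi-likelihood test, and 0% of all tested genes were called. The likelihood ratio test and the Wald test of DESeq2 also called 0 of the 38, and each called 0% of the genes it tested. At an unadjusted p under 0.05 there were 4 of the 38 genes (10.5%), Ndst3, Ndst4, Sulf2 and Gpc4, beside 3.56% of all tested genes. Values on the KD were higher for 25 of the 38, beside 49.1% of all tested genes, and the median log2 fold change was 0.05, beside -0.003 over all. No gene had KD and CD males that did not overlap, beside 0.217% of all tested genes.

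Sulf2, the more abundant of the sulfatases that trim 6-O-sulfate, had the smallest p in males. It was at 73.3, 66.1, 66.7, 41.2 and 53.6 CPM in CD males E51, E58, E66, E251 and E264, and at 43.6, 41.6, 52.4, 49.4, 37.6 and 31.5 CPM in KD males E53, E59, E64, E213, E256 and E254. The groups overlapped over both series. Within series 1 the CD males (66.1 to 73.3) lay above the KD males (41.6 to 52.4), and within series 2 they overlapped. The log2 fold change was -0.47 (SE 0.16, adjusted p = 0.9998). In females Sulf2 was at 66.7, 70.7, 35.6, 41.6 and 75.9 CPM in CD females E62, E67, E249, E265 and E228, and at 37.3 to 45.4 CPM in the 4 KD females, a log2 fold change of -0.55 (SE 0.18). The KD females lay close together within the wide range of the CD females. The gene overlaps Ncoa3 on the opposite strand, and whether strand was used in counting is not stated.

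The glypican Gpc4 rested on a pair of libraries. It was at 5.12 to 9.14 CPM in CD males and at 23.4 and 20.6 CPM in KD males E64 and E254, while the other 4 KD males were at 5.63 to 8.91 CPM. The log2 fold change in males was 0.73 (SE 0.31, adjusted p = 0.9998), 0.38 without E64 and -0.01 without both libraries. These are the libraries with the highest fibroblast markers of the males, and E64 had the highest hippocampal sum of all libraries (267 CPM). The hippocampal sum of E254 was 163 CPM. CD female E249 and KD female E68 had higher fibroblast sums (286 and 233 CPM) than E254 (222 CPM). The part of these markers in the value was not tested beyond leaving both libraries out. No female, these 2 included, exceeded 11.9 CPM of Gpc4.

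In females, as a description, 17 of the 38 genes were higher on the KD, beside 52.7% of all tested genes, and the median log2 fold change was -0.01, beside 0.01. Besides Ndst3, the log2 fold changes farthest from 0 were those of Gpc3 (1.24, SE 0.53), the 3-O-sulfotransferase Hs3st2 (-0.82, SE 0.34), Sulf1 (0.65, SE 0.46), the 3-O-sulfotransferase Hs3st3a1 (-0.64, SE 0.34) and Sulf2. Leaving out 1 mouse moved 3 of these by over 1.5 times. Sulf1 was at 0.27 without KD female E207, 0.41 without CD female E62 and 1.19 without CD female E249. Hs3st2 was at -0.53 without KD female E61, and Hs3st3a1 at -0.40 without CD female E249 and -0.99 without KD female E68. Fitted within series 1 and within series 2, the log2 fold changes were 2.09 and 0.44 for Gpc3, -1.44 and -0.33 for Hs3st2, 1.19 and 0.39 for Sulf1, and -0.84 and -0.32 for Sulf2. Hs3st3a1 changed direction, at 0.059 in series 1 and -1.16 in series 2. Only for Ndst3 and Sdc4 did the KD and CD females not overlap, which is 2 of 38 genes beside 2.1% of all tested genes. Sdc4, a syndecan, was at 80.4, 67.2, 67.7, 78.5 and 72.9 CPM in CD females and at 112, 96.5, 80.9 and 88.6 CPM in KD females. Its lowest KD female thus lay just above its highest CD female, and its means were 73.4 ± 6.02 and 94.5 ± 13.4 CPM. In males Sdc4 was at 81.4 ± 10.2 CPM on the CD and 84.6 ± 19.2 CPM on the KD, with overlap. The direction in males differed between the series, with KD males (91.4 to 114.6 CPM) above CD males (77.03 to 84.7 CPM) in series 1 and a lower KD than CD mean (70.1 and 83.7 CPM) in series 2.

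The other genes with large changes in females were spread widely over mice. Gpc3 averaged 5.70 ± 4.199 CPM in CD females and 14.3 ± 6.56 CPM in KD females, and 3.35 ± 1.05 and 6.64 ± 5.32 CPM in CD and KD males (log2 fold change in males 0.97, SE 0.48, adjusted p = 0.9998). Hs3st2 averaged 24.5 ± 12.9 and 14.1 ± 5.06 CPM in CD and KD females, and 25.1 ± 10.6 and 19.2 ± 6.19 CPM in CD and KD males. Sulf1 averaged 27.9 ± 19.1 and 47.9 ± 19.9 CPM in females, and 20.7 ± 6.66 and 27.0 ± 16.4 CPM in males. Hs3st3a1 averaged 3.41 ± 1.42 and 2.21 ± 0.875 CPM in females, and 1.99 ± 0.638 and 1.76 ± 0.469 CPM in males. The KD and CD libraries overlapped in both sexes for all 4 genes. In males the higher KD means rested on few libraries. Sulf1 was at 56.7 CPM in KD male E59, and its medians were 18.6 CPM on the CD and 21.4 CPM on the KD. Gpc3 was at 16.5 and 9.21 CPM in E64 and E254, and its medians were 3.08 and 3.67 CPM. These 2 libraries had the highest fibroblast markers of the males, and E64 had the highest hippocampal sum of all libraries (267 CPM).

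The most abundant genes of most classes, other than those described elsewhere, had the following values. Extl2 averaged 149.7 ± 19.4 CPM in CD females, 162 ± 21.3 in KD females, 163 ± 17.8 in CD males and 167 ± 15.5 in KD males. In the same order, B3gat3 averaged 35.9 ± 18.5, 36.01 ± 11.8, 46.6 ± 12.0 and 49.3 ± 16.3 CPM, and Gpc5 48.5 ± 4.10, 58.4 ± 5.29, 48.6 ± 4.54 and 53.2 ± 7.11 CPM. Hs6st2 averaged 84.0 ± 28.7, 113 ± 34.5, 67.1 ± 7.59 and 79.6 ± 19.8 CPM. Hpse, far lower, averaged 2.93 ± 1.07, 2.05 ± 0.297, 2.66 ± 0.447 and 1.99 ± 0.636 CPM, with log2 fold changes of -0.55 (SE 0.27) in females and -0.47 (SE 0.24, adjusted p = 0.9998) in males. Gpc5 differed by more than the larger SD in females, as did Glce and Sdc4, the most abundant of their classes, while Extl2 and B3gat3 did not. For Extl2, B3gat3, Gpc5, Hs6st2 and Hpse the KD and CD libraries overlapped in both sexes.

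By class, the values of the diet comparison in the sexes stood as follows. Of the 5 linkage enzymes, 2 were higher on the KD in females and 4 in males. Of the 5 Ext and Extl genes, 2 were higher in each sex, and Ext1 had log2 fold changes of -0.47 (SE 0.16) in females and -0.07 (SE 0.14) in males. The female difference of Ext1 lay in series 1, with means of 73.9 CPM on the CD and 41.3 CPM on the KD, against 65.3 and 62.3 CPM in series 2. Glce averaged 154 ± 19.8 CPM in KD females against 115 ± 20.04 CPM in CD females. In series 1 its means were 99.8 and 165 CPM on the CD and KD, and in series 2 they were 126 and 142 CPM. Glce was highest among CD females in E249 (147 CPM), the CD female with raised striatal markers. It was lowest among KD females in E227 (124 CPM), the KD female without them. Its partner in the class, Hs2st1, had a log2 fold change of -0.29. The values did not separate the groups for either gene. Of the 6 tested 3-O-sulfotransferases, 1 was higher on the KD in females and 3 in males. Of the 6 glypicans, 4 were higher in females and 6 in males, and of the 4 syndecans, 3 and 4. Counted gene by gene, 16 of the 38 were higher on the KD in both sexes, 12 lower in both, 9 lower in females and higher in males, and 1, Ndst2, higher in females and lower in males.

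**Figure D3:**
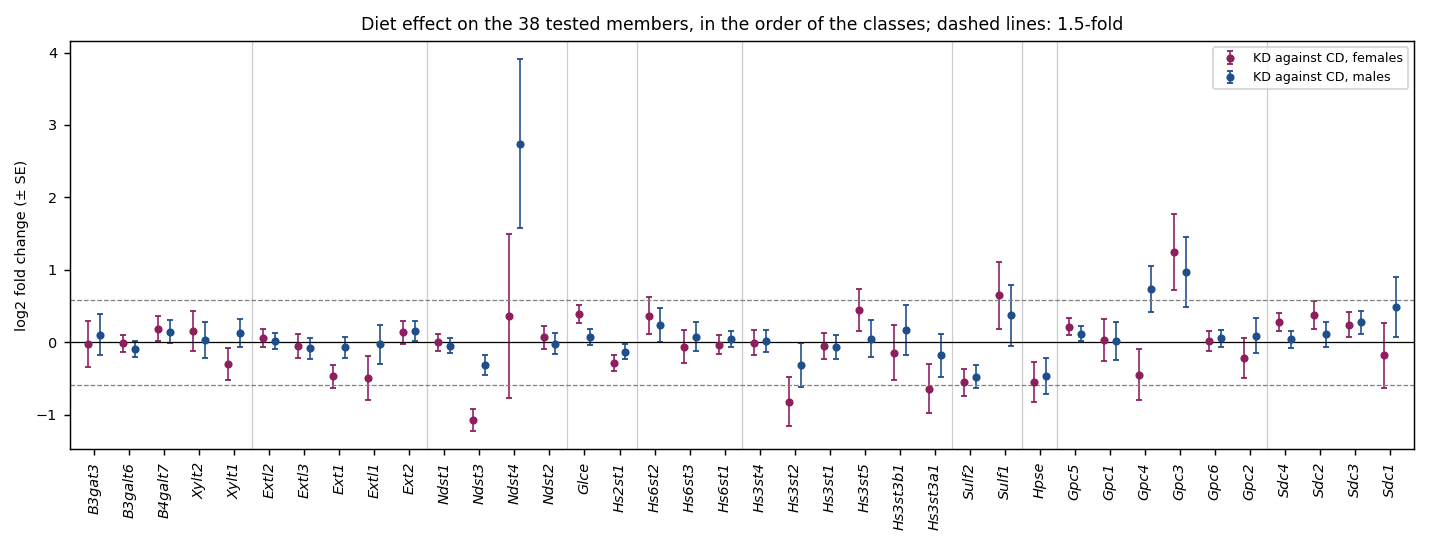
Log2 fold change of the KD against the CD for the 38 tested genes in females and males, with SE bars, in the order of the classes. Dashed lines mark 1.5-fold. Ndst3 in females stands at -1.07, and the Ndst4 value in males, 2.74, has an SE of 1.16.

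**Figure D4:**
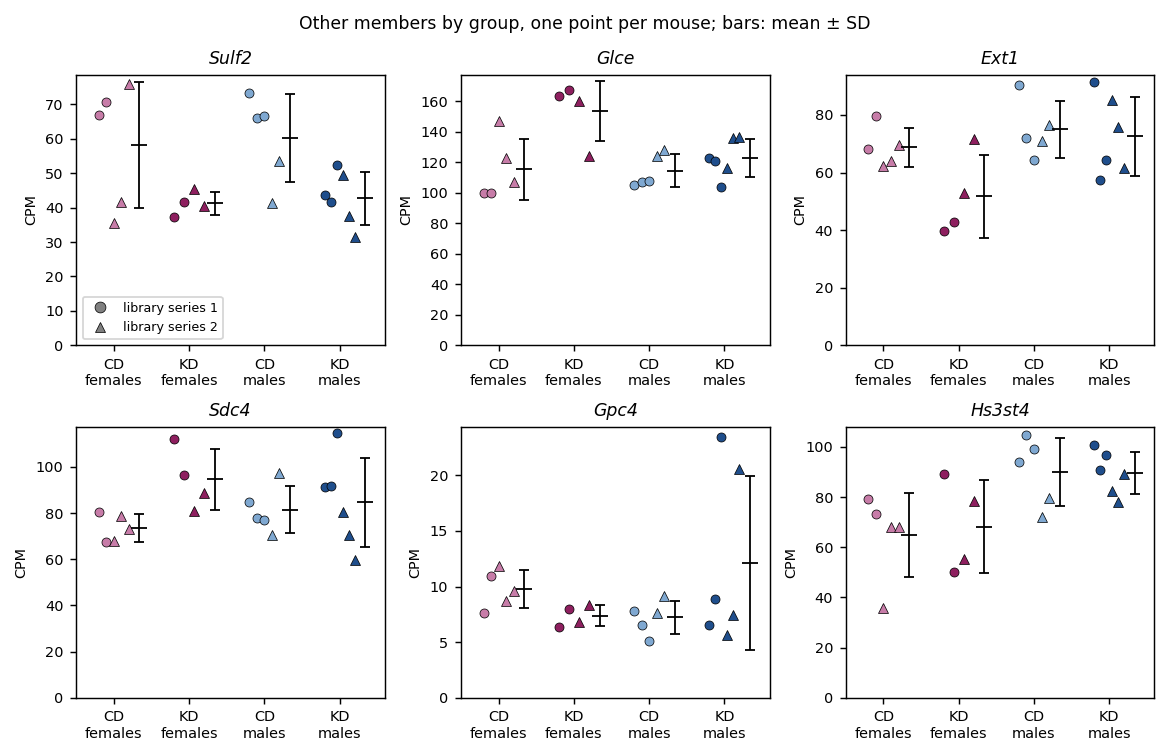
Levels of Sulf2, Glce, Ext1, Sdc4, Gpc4 and Hs3st4 in CPM by group. Each point is 1 mouse, its shape gives the library series, and bars are mean ± SD. The lowest KD female for Sdc4 (80.9) lies above the highest CD female (80.4), and 2 KD males lie apart for Gpc4 at 23.4 and 20.6 CPM.

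Several genes, picked here after their values were seen, were high in the females with raised striatal markers. The sums of the cholinergic, inhibitory, precursor, deep-layer and hippocampal markers were raised in the same libraries. Some of the inhibitory, deep-layer and hippocampal markers were lower on the KD in females, as given above. The 8 fibroblast markers summed to 286 CPM in CD female E249 and to 193, 233 and 151 CPM in KD females E61, E68 and E207. The other 5 females had 79.6 to 123 CPM of them. The glypican Gpc3 was at 13.1 CPM in CD female E249 and at 2.86 to 4.86 CPM in the other CD females. It was at 19.4, 19.1 and 13.1 CPM in KD females E61, E68 and E207 and at 5.44 CPM in E227. E249 thus sat with the KD females and E227 near the CD females. The 6-O-sulfotransferase Hs6st2 was at 129 CPM in CD female E249 and 56.8 to 92.8 CPM in the other CD females, and at 121, 141 and 128 CPM in KD females E61, E68 and E207 and 63.2 CPM in E227. Sdc2 was at 124 CPM in E249 and 67.1 to 77.4 CPM in the other CD females, and at 121, 138 and 115 CPM in E61, E68 and E207 and 73.1 CPM in E227. For both genes E249 lay in the range of E61, E68 and E207, and E227 in that of the other CD females. Sulf1 was at 58.6 CPM in E249, 47.6, 58.9 and 65.1 CPM in E61, E68 and E207, and at most 31.0 CPM in the other 5 females. In KD male E59, the male with the highest striatal sum, Sulf1 was at 56.7 CPM, the highest of the males. Hs6st2 was at 93.5 CPM in E59, below KD male E254 (98.4), whose striatal sum was 356 CPM, and Gpc3 was at 3.62 CPM, as in most males. The part of tissue composition in these differences was not tested.

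Extl1, of the exostosin family, ran the other way, at 13.5 CPM in CD female E249 and 18.6, 13.3 and 20.5 CPM in KD females E61, E68 and E207, against 38.3 CPM in E227. CD female E265 was also low, at 21.3 CPM, and the other CD females were at 38.7 to 41.3 CPM. Ext1 was lowest in KD females E61, E68 and E207, at 39.6, 42.9 and 52.8 CPM, and at 62.4 CPM in E249 and 71.8 CPM in E227.

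**Figure D5:**
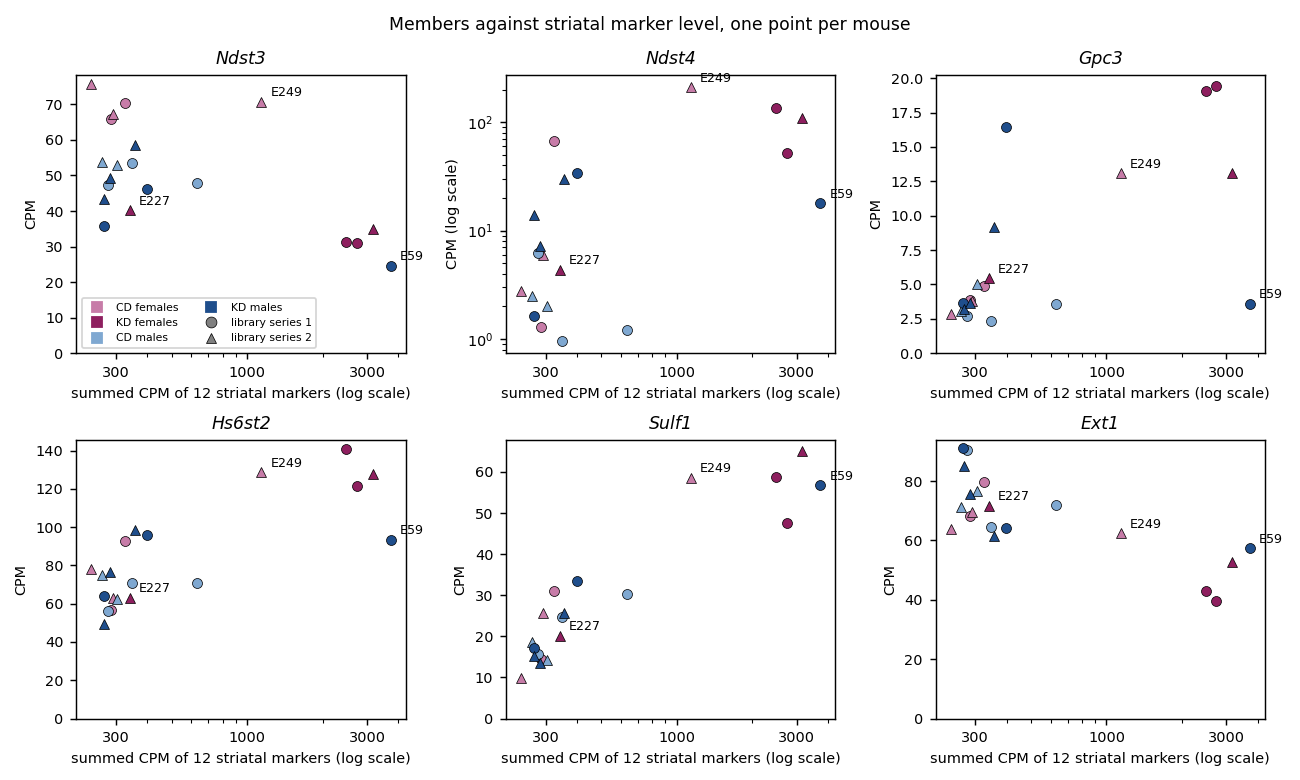
Levels of Ndst3, Ndst4, Gpc3, Hs6st2, Sulf1 and Ext1 (CPM, Ndst4 on a log axis) against the summed CPM of 12 striatal markers (log axis), 1 point per mouse. CD female E249, KD female E227 and KD male E59 are named. E249 is at 70.8 CPM of Ndst3 and 13.1 CPM of Gpc3, and E227 at 40.2 CPM of Ndst3 and 5.44 CPM of Gpc3.

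Females and males were compared within each diet. These comparisons share the female libraries with the one from which Ndst3 was chosen. On the CD no gene of the 38 was called, beside 0.0383% of all tested genes, and 4 genes other than Ndst3 had an unadjusted p under 0.05, which is 10.8% of the other 37, beside 2.41% of all tested genes. The Wald test of DESeq2 called Ndst4, and its share of calls among all tested genes is given below with the other alternatives. Ndst4 averaged 57.6 ± 90.03 CPM in CD females and 2.60 ± 2.15 CPM in CD males, a log2 fold change of 4.47 (SE 1.27, adjusted p = 0.978). That mean rests on CD females E249 and E67, and the log2 fold change was 2.80 without E249. Hs3st4 averaged 64.9 ± 16.8 CPM in CD females and 89.9 ± 13.6 CPM in CD males, a log2 fold change of -0.41 (SE 0.16, adjusted p = 0.978), with overlap. It was lowest in CD female E249 (36.0 CPM), and the log2 fold change was -0.29 without that mouse. The linked 3-O-sulfotransferases Hs3st3a1 and Hs3st3b1, 513041 bases apart on chromosome 11, had log2 fold changes of 0.75 and 0.91, and both were highest in CD female E249.

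On the KD no gene of the 38 was called between the sexes, beside 0.0766% of all tested genes. At an unadjusted p under 0.05 there were 9 of the 37 genes other than Ndst3 (24.3%), beside 12.5% of all tested genes. Without KD female E227 the number called was 5 (Xylt1, Ext1, Extl1, Hs6st2 and Sdc2), beside 8.44% of all tested genes in that fit. The smallest p was that of Ext1, at 51.8 ± 14.5 CPM in KD females and 72.5 ± 13.7 CPM in KD males, a log2 fold change of -0.53 (SE 0.15, adjusted p = 0.179). Hs3st4 was at 68.2 ± 18.6 CPM in KD females and 89.7 ± 8.49 CPM in KD males (log2 fold change -0.43, SE 0.17, adjusted p = 0.283, and -0.28 without KD female E68). Glce was at 154 ± 19.8 CPM and 123 ± 12.5 CPM (log2 fold change 0.30, SE 0.12, adjusted p = 0.290). Under 14 alternatives other than leaving out a mouse, the log2 fold change ran from 0.085 to 0.497 for Glce. That of Ext1 ran from -0.800 to -0.295. For Ext1, Hs3st4 and Glce the groups overlapped, and 3 of the 4 KD females are the libraries with high striatal markers. The groups did not overlap for 1 gene, Hs6st3, at 8.66 to 10.4 CPM in KD females and 10.9 to 12.5 CPM in KD males, beside 1.17% of all tested genes.

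The library series was itself a source of variation. With the 4 groups in the fit, 1 of the 38 genes was called between series 2 and series 1, beside 7.24% of all tested genes. This was Gpc1, with a log2 fold change of -0.64 (SE 0.20, adjusted p = 0.0258). Gpc6 was higher in series 2 by 0.37 on the log2 scale (adjusted p = 0.00778) and Hs3st1 was lower, at -0.48 (adjusted p = 0.00934), both short of 1.5-fold. Ndst3 was higher in series 2 by 0.29 (SE 0.10, adjusted p = 0.0410), against -1.07 between the diets in females. All adjusted p-values are those of edgeR with Benjamini-Hochberg adjustment over the 15660 tested genes.

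Genes of neighbouring pathways were listed as well, 64 in all, of which 60 were tested. None was called in either sex or between the sexes on either diet. At an unadjusted p under 0.05 there were 6 higher and 2 lower on the KD in females (13.3%, beside 11.4% of all tested genes), given as a description. There were 2 higher and 1 lower in males (5%, beside 3.56% of all tested genes). In males these were Col18a1, which encodes a secreted heparan sulfate proteoglycan (2.12 ± 0.653 CPM on the CD and 4.21 ± 2.46 on the KD, log2 fold change 0.97, SE 0.36), Papss2, an enzyme that makes the sulfate donor (13.7 ± 2.49 and 19.0 ± 2.16 CPM, log2 fold change 0.46, SE 0.19), and Acan, the chondroitin sulfate proteoglycan aggrecan (log2 fold change -0.40, SE 0.18). The adjusted p of each was 0.9998. Col18a1 overlapped between the diets, at 1.29 to 2.87 CPM in CD males and 1.35 to 7.85 CPM in KD males. All 8 fibroblast markers and all 7 tested choroid plexus markers were also higher on the KD in males. The choroid plexus markers summed to 2371 CPM in KD male E59 and to at most 51.9 CPM in the other KD males, below CD male E251 (63.0 CPM). The part of these marker genes in the values of the pathway genes was not tested. Values in males were higher on the KD for 3 of 3 secreted heparan sulfate proteoglycans, 6 of 12 genes of sulfate donor and sugar precursor supply, 2 of 8 of lysosomal degradation, 11 of 15 of chondroitin sulfate synthesis, 5 of 7 chondroitin sulfate proteoglycans and 8 of 15 FGF ligands and receptors. The other genes of smallest p in their lists in males had log2 fold changes of 0.63 (Hspg2) and 0.11 (Agrn) for the secreted proteoglycans, 0.23 (Slc26a2, a sulfate transporter) and -0.11 (Uxs1) for precursor supply, and -0.40 (Arsg), -0.14 (Hgsnat) and 0.16 (Ids) for degradation. Those of chondroitin sulfate synthesis were 0.42 (Ust), -0.17 (Chsy3) and 0.35 (Dsel), those of its core proteins 0.25 (Bcan) and 0.27 (Ptprz1), and those of the FGF list -0.25 (Fgf9), 0.64 (Fgf11) and 0.28 (Fgfr1). Col18a1 was also higher in KD females, with a log2 fold change of 1.002 (SE 0.40) given as a description.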

How the data were processed

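Reads were mapped by the authors to mm10 using STAR, and the deposited values are raw counts per gene. Versions, annotation and strand setting are not given in the sources used here. Groups came from the labels. The 2 series were read from the ranges of the mouse numbers in the labels, which name no batch. The 40 genes, the 6 pathway lists and the 16 marker lists were chosen with earlier results of these data known.

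CPM and log2 CPM (prior count 2) were computed from the counts. Of 23413 gene names, 21777 matched GENCODE M21 on GRCm38, which gave coordinates and exon lengths, and 22 of the 40 genes overlap another gene. Genes passing filterByExpr (15660) were fitted in edgeR 4.0.16 (R 4.3.3) with upper-quartile scaling, the 4 groups and the series, in 1 fit of all 20 libraries, with robust quasi-likelihood F tests and Benjamini-Hochberg adjustment over all tested genes. Genes were called at FDR 0.1 and a 1.5-fold change, the study's thresholds. Its RUVg step was run only as an alternative, written anew, with all but the 5000 genes of smallest p as controls, since its settings are not stated. Each library is 1 mouse, and p-values measure the spread between mice. The script was tested on simulated data. Totals of at least 12207161 counts set the precision, and SDs include counting error.

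All 4 NDST genes, the most abundant gene of each class, the 3 genes of smallest p in males and in each sex comparison, the 6 of largest change in females, and the called genes were to be named, with the pathway genes called or else those of smallest p in males. Genes outside this rule, such as Sdc2, Hs6st3 and Extl1, were named after their values were seen. Alternatives were TMM, DESeq2 1.42.0 size factors and Wald test, other filters and thresholds, RUVg with 1 or 2 factors or nothing in place of the series, fits of 1 sex or 1 series, the likelihood ratio test, and leaving out each mouse.

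The sums of 1 marker list are not reported here. The others, beside those in the text, gave summed levels as follows over the 20 libraries. Astrocytes were at 4825 to 7054 CPM, inhibitory neurons 748 to 1989, upper-layer neurons 628 to 925, deep-layer neurons 323 to 708, microglia 295 to 517, oligodendrocyte precursors 191 to 399, endothelium 196 to 317, hippocampal neurons 148 to 267, thalamic neurons 91.1 to 227, pericytes and smooth muscle 98.5 to 221, and basal forebrain cholinergic neurons 8.10 to 188.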

Additional observations from a re-analysis of the deposited data

Results flagged for a closer look

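In 7 of 152 gene and group combinations 1 library lay far from the rest of its group, with a gap to the nearest library that took up an unusually large share of the group's range. By chance about 1 in 20, or 7.6, would be found. CD female E249 stood apart for 3 genes. Gpc3 was at 13.1 CPM against 2.86 to 4.86 CPM in the other CD females (gap 0.804 of the range), Sdc2 at 124 against 67.1 to 77.4 CPM (0.820), and Hs3st4 at 36.0 against 68.03 to 79.3 CPM (0.740). In KD male E64, Extl2 was at 136 against 170 to 178 CPM in the other KD males (0.813) and Sdc1 at 1.69 against 0.542 to 0.914 CPM (0.677). Hs3st2 in KD male E59 was at 31.3 against 15.3 to 20.4 CPM (0.679), and Hs6st1 in CD male E251 at 28.0 against 32.8 to 34.03 CPM (0.798).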

How the results depend on the processing

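The log2 fold change of Ndst3 in females, a description, was between -1.17 and -0.998 under 15 alternatives and between -1.12 and -1.02 when each mouse was left out. The number of the 40 genes past the thresholds in females, also a description and not a test of the list, was 1. It was 6 within series 1 (Ext1, Extl1, Ndst3, Glce, Sulf2 and Sdc2), beside 5.42% of all tested genes in that fit, and 0 within series 2, beside 0%. Leaving out 1 mouse gave 0 (without KD female E61 or E207, beside 0%) to 4. Without CD female E249 these were Ndst3, Sulf1, Sulf2 and Gpc3 (beside 6.66%), and without KD female E227 Ext1, Extl1, Ndst3 and Hs3st2 (beside 5.68%). Between the sexes on the KD the number was 0, but 3 within series 1 (Ext1, Extl1 and Sdc2, beside 4.32%), and 0 to 5 when a mouse was left out, 5 being without KD female E227 (Xylt1, Ext1, Extl1, Hs6st2 and Sdc2, beside 8.44%). On the CD it was 0, but 1 under the Wald test of DESeq2 (Ndst4, 4.48, adjusted p = 0.0964, beside 0.045% of all tested genes). In males it was 0 in every alternative run. Of 622 single-gene values under an alternative, 609 kept their direction and side of the threshold, 3 fell short of it, 8 passed it and 2 reversed. Those reversed were Hs3st3a1 in females, 0.059 within series 1, and Gpc4 in males, -0.011 without KD males E64 and E254, an alternative chosen after seeing the data. The cause was not tested, except that leaving out mice or a series leaves fewer samples. The permutation p of Ndst3 in males was 0.182 on CPM and 0.145 within series, and 8 of the 10 most abundant genes per kilobase were also so in CPM. No paired analysis was possible because no replicate number is shared between groups. Hs3st6 and Hpse2 were too low to test at this depth.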
